A study of Caenorhabditis elegans with 2 samples.

Results

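HLH-8 binding on the X chromosome was described from 230 of the 1120 peaks of the study's optimal list in genome build ce11. The members are all optimal peaks on chromosome X, and no other property was used to choose them. The other optimal peaks were 870 on the 5 autosomes and 20 on mitochondrial DNA. The study is a chromatin immunoprecipitation sequencing (ChIP-seq) experiment on whole hermaphrodite late embryos of Caenorhabditis elegans strain OP63, taken 3.5 hours after synchronization by bleaching. In this strain a stable transgene expresses HLH-8 fused at its C terminus to GFP and FLAG, and chromatin was precipitated with an antibody against GFP. There was 1 group, of 2 biological replicates, and both replicates carry the transgene. Untagged worms and control libraries were not analysed here, so signal that does not come from tagged HLH-8 cannot be told apart from binding. In whole embryos, binding in many cells and stronger binding in few cells cannot be told apart either.

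HLH-8 is the worm's Twist protein, a basic helix-loop-helix factor that forms dimers and binds E-boxes, short sites spelled CANNTG, and is known for the patterning of the mesoblast (M) lineage, the vulval and enteric muscles and other non-striated muscle. The X chromosome is present as a pair in hermaphrodites, whose dosage compensation complex binds recruitment sites on X and lowers transcription of X genes. Transfer RNA (tRNA) genes are transcribed by RNA polymerase III from promoter elements inside the gene, the A box and the B box, and the worm X carries many of them.

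The sequences at the sites that the results below turn on are shown first, from the RefSeq sequence of the WBcel235 assembly (ce11). The first is centred on the summit of the strongest X peak, in an intron of hlh-8 itself, and holds none of the 10 classes of E-box, so nothing in it is in capitals. The next are the stretches around an E-box at the 5′ end of hlh-8 and the candidate summits upstream of arg-1 and egl-15, which are HLH-8 targets on X, with every E-box in capitals.
hlh-8 intron, chrX:8117977-8118077, plus strand: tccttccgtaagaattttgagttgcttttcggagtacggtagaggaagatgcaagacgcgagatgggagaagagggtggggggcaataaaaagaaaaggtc
hlh-8 promoter, chrX:8116498-8116527, plus strand: tcctctgttacgCATATGtttggatctcat
arg-1, chrX:1786662-1786762, plus strand: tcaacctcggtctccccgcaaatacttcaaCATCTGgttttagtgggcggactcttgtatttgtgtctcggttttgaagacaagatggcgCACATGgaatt
egl-15, chrX:11015978-11016078, plus strand: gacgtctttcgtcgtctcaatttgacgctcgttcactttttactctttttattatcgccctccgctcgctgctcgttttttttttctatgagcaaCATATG

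The strongest promoter peak of X lay between T13C5.6 and mtp-18, and its window holds no E-box but the word GAGAGA, in capitals as its reverse complement. The windows beside C04C11.25 and sym-4 hold 4 and 3 classes of E-box, in capitals. The strongest tRNA-linked peak lay at C04A11.t1, a gene for a leucine tRNA, shown whole with the words for its A box and B box in capitals. The last window spans the egl-17 summit, where the capitals mark an E-box that lies inside a tRNA gene.
T13C5.6 promoter, chrX:6207803-6207903, plus strand: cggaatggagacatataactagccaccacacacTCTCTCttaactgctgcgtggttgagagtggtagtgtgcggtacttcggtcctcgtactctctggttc
C04C11.25, chrX:14016736-14016836, plus strand: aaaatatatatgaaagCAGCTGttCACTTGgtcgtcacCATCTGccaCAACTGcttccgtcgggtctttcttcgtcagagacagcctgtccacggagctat
sym-4, chrX:14169836-14169936, plus strand: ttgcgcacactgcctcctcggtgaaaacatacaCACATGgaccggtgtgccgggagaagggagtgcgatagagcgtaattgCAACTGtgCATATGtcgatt
C04A11.t1, chrX:13665555-13665673, plus strand: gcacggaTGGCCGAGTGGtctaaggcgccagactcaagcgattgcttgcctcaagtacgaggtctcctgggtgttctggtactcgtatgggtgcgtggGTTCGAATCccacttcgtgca
egl-17, chrX:489820-489920, plus strand: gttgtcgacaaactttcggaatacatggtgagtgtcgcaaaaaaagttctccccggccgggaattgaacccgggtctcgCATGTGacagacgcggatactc

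Of the 230 X windows, 6 held the word GCGCAGGG, the core of a motif known from recruitment sites of the dosage compensation complex. Capitals mark the core, on either strand, in each of them. The window beside R04E5.9 is given as 30 bases only, because it overlaps an annotated untranslated region.
F20B6.9, chrX:4209231-4209331, plus strand: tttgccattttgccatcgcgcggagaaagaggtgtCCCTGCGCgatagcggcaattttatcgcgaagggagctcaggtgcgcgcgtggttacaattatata
R04E5.9, chrX:8811094-8811123, plus strand: tgcgtccctctCCCTGCGCgtcgcgtgttc
gtr-1, chrX:806646-806746, plus strand: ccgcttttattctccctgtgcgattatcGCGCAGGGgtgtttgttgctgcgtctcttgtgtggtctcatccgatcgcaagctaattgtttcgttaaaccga
cest-16, chrX:6296482-6296582, plus strand: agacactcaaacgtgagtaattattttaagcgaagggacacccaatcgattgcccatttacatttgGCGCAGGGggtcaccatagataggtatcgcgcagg
W02H3.3, chrX:11094159-11094259, plus strand: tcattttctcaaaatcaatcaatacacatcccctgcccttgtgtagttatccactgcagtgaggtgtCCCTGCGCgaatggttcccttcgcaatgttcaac
nspc-17, chrX:14525850-14525950, plus strand: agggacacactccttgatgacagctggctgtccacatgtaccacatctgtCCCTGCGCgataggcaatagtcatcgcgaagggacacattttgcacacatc

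X peaks made up 20.5% of the optimal list (exact 95% interval 18.2 to 23.0). The optimal list holds the peaks that passed the authors' irreproducible discovery rate (IDR) step, out of a pooled candidate list that deliberately mixes peaks with background. On X, 230 of 4558 candidates were optimal, 5.05%, against 870 of 21324 on the autosomes, 4.08%. The exact 95% intervals of these shares were 4.43 to 5.72% on X and 3.82 to 4.35% on the autosomes. All intervals cover counting error over sites only, and sites are not replicates of the experiment. Per megabase, X held 13.0 optimal peaks and the autosomes together held 10.5, with single autosomes between 7.46 and 13.9. Without peaks within 200 bp of a tRNA gene, the densities were 9.88 on X and 10.0 on the autosomes. No test was made between chromosomes, since the design has 1 group and the peaks are sites of the same 2 libraries.

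X held few of the strongest peaks. Signal is the authors' peak score in arbitrary units, in which the pooled value is close to the sum of both replicates. The pooled signal of X peaks had a median of 73.8, with a lowest value of 57.4, quartiles of 62.9 and 90.1 and a highest value of 271.8. Autosomal peaks had a median of 80.3, the same lowest value of 57.4, and a highest value of 1132. Among the 100 strongest nuclear peaks 9 were on X, 9.0%. Ranks 101 to 300 held 33 X peaks, ranks 301 to 600 held 66, ranks 601 to 900 held 65, and ranks 901 to 1100 held 57, which is 28.5% of that last band.

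At the weak end, the list stopped between neighbouring values. The last 3 X peaks inside had pooled signals of 57.42 at mbk-1, a DYRK-family kinase gene, 57.40 beside a serine tRNA gene and 57.39 at ace-1, an acetylcholinesterase gene. The first 3 X candidates outside had 57.34 at mdt-1.2 and T23C6.4, 57.28 in the same stretch as an optimal peak near C30E1.4, and 57.18 upstream of sid-3. The ace-1 summit, 68 bp upstream of its nearest 5′ end, held both CACATG and CAGATG within 50 bp.

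The peaks ran along the whole chromosome. Summits lay from position 353351 to 17610607 on X, a median of 56654 bp apart, and formed 223 separate regions after overlapping peaks were merged. In 20 equal bins of X the count ran from 8 to 17, while candidates ran from 162 to 277 per bin and tRNA genes from 3 to 42. The left 25% of X held 55 peaks, the middle 50% held 117 and the right 25% held 58. The widest stretch with no optimal peak spanned 376640 bp, from 15365407 to the peak at 15742047, which lies 563 bp upstream of nhr-255, a nuclear hormone receptor gene. No stretch of 1 Mb held more than 24 peaks, a number reached between the summits 5429531 and 6410450, where 4 of the 24 were near a tRNA gene.

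**Figure D1:**
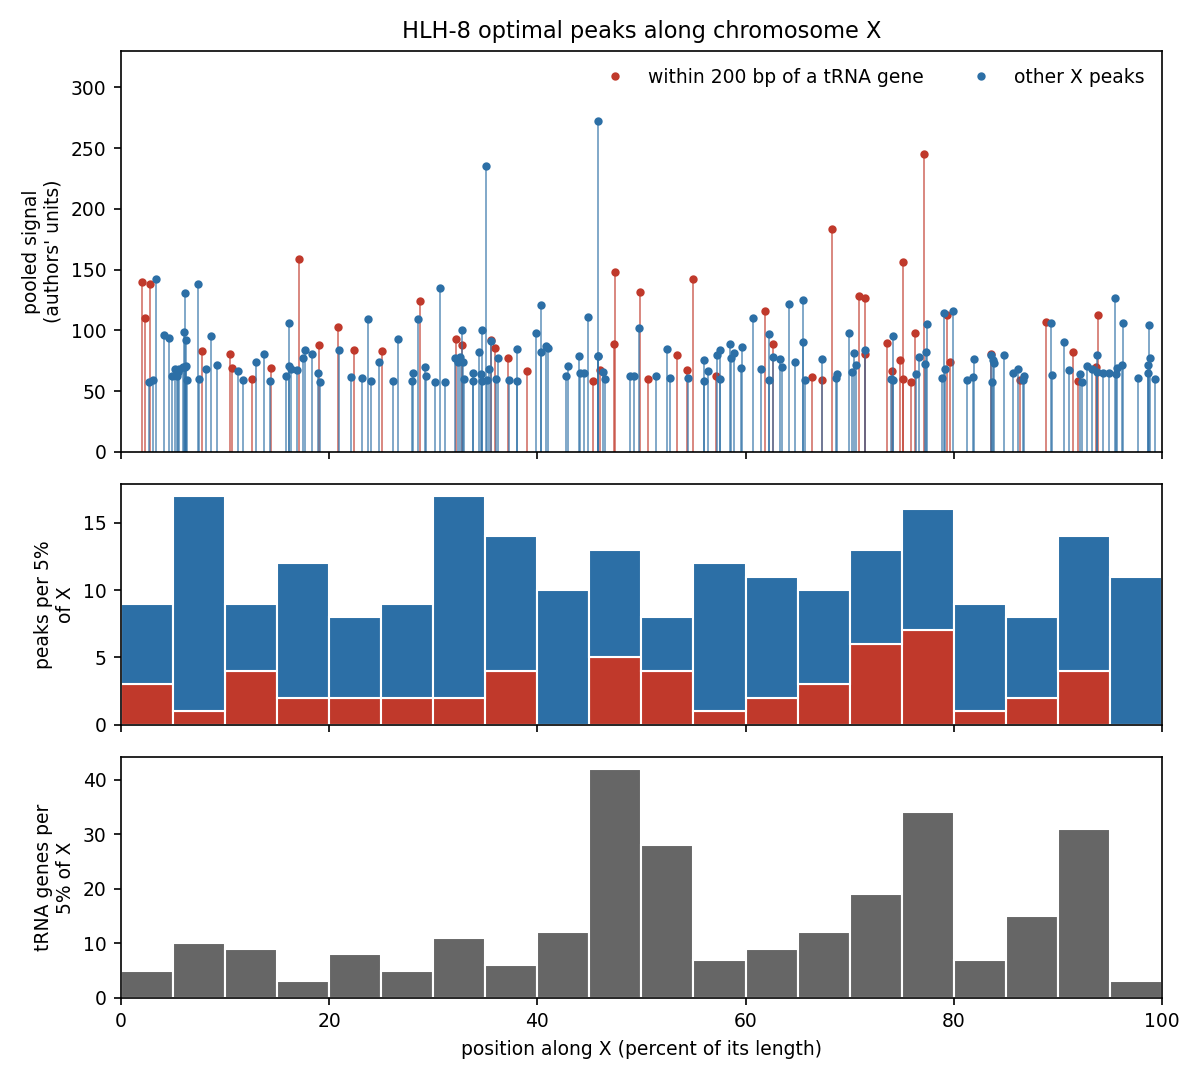
Pooled signal of each of the 230 X peaks (top, authors' units), peaks per 5% of X (middle) and tRNA genes per 5% of X (bottom), against position in percent of the length of X, with red for peaks within 200 bp of a tRNA gene and blue for the others. Peaks lie in all 20 bins, 8 to 17 in each, while tRNA genes range from 3 to 42 per bin, and the bin with 42 tRNA genes holds 5 tRNA-linked peaks.

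A smaller share of X peaks than of autosomal peaks lay at protein-coding promoters, though no test was made. A promoter peak had its summit at most 500 bp upstream or 200 bp downstream of a protein-coding 5′ end, and there were 77 of 230 on X, 33.5% (exact 95% interval 27.4 to 40.0), against 438 of 870 on the autosomes, 50.3% (47.0 to 53.7). Such windows cover 13.4% of the bases of X and 17.0% of those of the autosomes, and X has 154 protein-coding genes per megabase against 209 on the autosomes. Among X candidates outside the optimal list 21.3% were promoter peaks, against 24.7% of such autosomal candidates. Intergenic sites took 111 X peaks, 48.3%, against 31.5% of autosomal peaks, and introns took 37, 16.1%, against 16.1%. Exons held 5 X peaks and 18 autosomal ones. The median distance from a summit to the nearest protein-coding 5′ end was 969.5 bp on X and 441 bp on the autosomes. Leaving out the tRNA-linked peaks, the promoter share was 40.6% of 175 X peaks and 52.0% of 829 autosomal peaks.

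**Figure D2:**
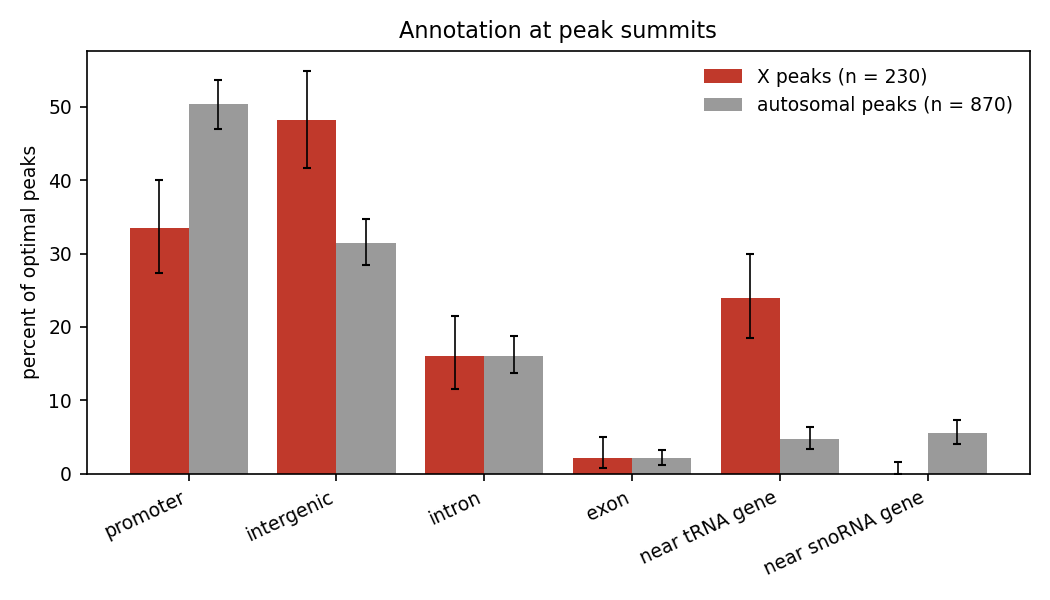
Percent of optimal peaks in each annotation class and within 200 bp of a tRNA or snoRNA gene, for 230 X peaks (red) and 870 autosomal peaks (grey), with exact 95% binomial intervals as error bars. Promoter peaks make up 33.5% on X and 50.3% on the autosomes, tRNA-linked peaks 23.9% and 4.71%, and no X peak is near a snoRNA gene.

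Many X peaks sat on tRNA genes, among them 12 of the 20 strongest. Summits within 200 bp of a tRNA gene numbered 55 of 230 on X, 23.9% (exact 95% interval 18.6 to 29.96), against 41 of 870 on the autosomes, 4.71% (3.40 to 6.34). X carries 276 of the 612 nuclear tRNA genes, 45.1%, on 17.7% of the nuclear genome, and it held 57.3% of the 96 nuclear tRNA-linked peaks. An optimal summit lay within 200 bp of 59 X tRNA genes, 21.4%, and of 43 of the 336 autosomal ones, 12.8%. For any pooled candidate the order was the other way round, with 150 X tRNA genes, 54.3%, and 206 autosomal ones, 61.3%. Among candidates near a tRNA gene, 55 of 167 were optimal on X, 32.9%, against 41 of 232 on the autosomes, 17.7%. Pooled signals of tRNA-linked X peaks had a median of 83.6 and a range of 57.4 to 245.4, and the other X peaks had a median of 70.3, while on the autosomes the medians were 72.1 and 80.8. Of the 20 strongest autosomal peaks 1 was tRNA-linked.

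C04A11.t1, a leucine tRNA gene on the plus strand at 13665555 to 13665673, had the strongest of these peaks, with 112.8 in replicate 1, 132.5 in replicate 2 and 245.4 pooled. Both replicates were high there, and the summit lay 4 bp inside the gene. W03G11.t1, a lysine tRNA gene 1063 bp downstream of the 5′ end of col-181, a cuticle collagen gene, had 78.9 in replicate 1, 102.0 in replicate 2 and 183.8 pooled. M02F4.t1, a glycine tRNA gene, had 79.2 in both replicates. R04D3.t2, a valine tRNA gene upstream of srd-43, a gene of a chemoreceptor family, had 69.3 and 86.7 in replicates 1 and 2. F41D9.t3, an asparagine tRNA gene in an intron of sulp-3, a gene of the sulphate permease family, had 74.5 and 74.8. The largest log2 ratio of replicate 2 over replicate 1 among these 5 was 0.37, at W03G11.t1.

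The summits centred on the start of the tRNA genes. Measured in the direction of transcription, the 55 X summits lay a median of 3 bp downstream of the tRNA 5′ end, with quartiles of −16 and 14.5 bp, and 48 were within 50 bp of it. On the autosomes the median of 41 summits was 12 bp, and 32 were within 50 bp. Most of the X sites were away from promoters of protein-coding genes, with 33 intergenic, 15 in introns, 6 in promoter windows and 1 in an exon. The B box word GTTCNANNC was found in 268 of the 276 X tRNA genes. It stood within 50 bp of 17 of the 55 summits and in 3.82% of all 101-bp windows of X. A summit near the 5′ end can lie more than 50 bp from the word, as at C04A11.t1, shown above.

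**Figure D3:**
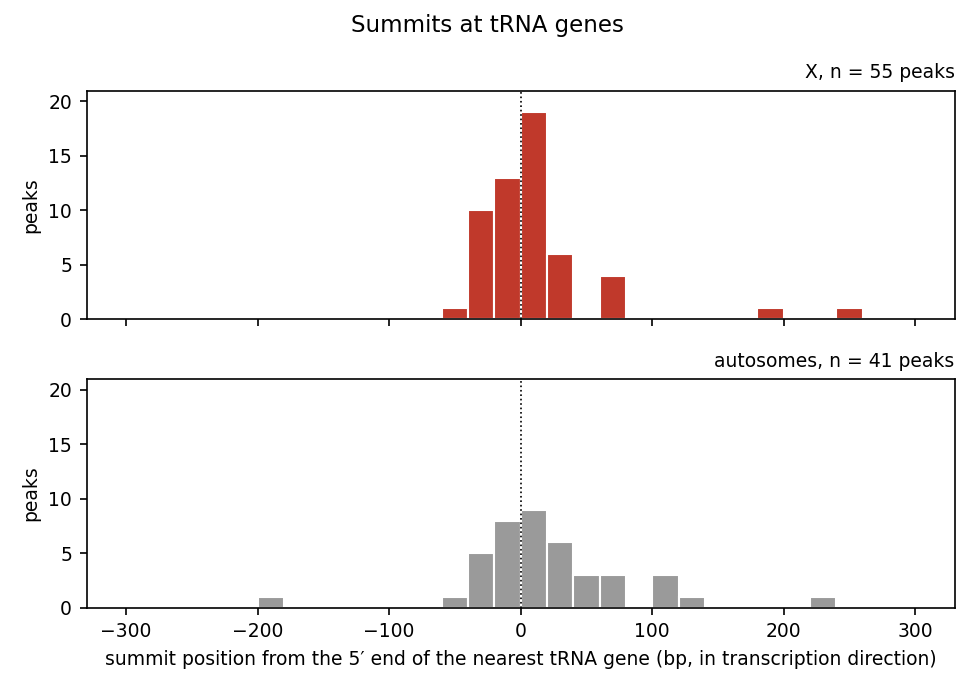
Number of tRNA-linked peaks by the distance of the summit from the 5′ end of the nearest tRNA gene, in bins of 20 bp along the direction of transcription, for 55 X peaks (top) and 41 autosomal peaks (bottom). The X summits have a median of 3 bp and 48 of them fall within 50 bp of the 5′ end.

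Each of the 20 amino acid types served by X tRNA genes had at least 1 gene with an optimal peak. Proline genes had an optimal peak at 7 of 20, leucine genes at 6 of 17, serine genes at 5 of 18, and glutamine genes at 1 of 15. These are counts of genes, and genes close together can share a peak. The proline genes F46G11.t1 and F46G11.t2 share one, as do C16B8.t2 and C16B8.t3, and the serine genes C53C7.t1 and C53C7.t2. Among the genes with a peak is sup-7, a tryptophan tRNA gene known for its amber suppressor alleles. Its pooled signal was 85.7, with a summit 24 bp inside the gene. The exact sequence of 219 of the 276 X tRNA genes is shared with another annotated nuclear tRNA gene, and 54 of these had an optimal peak, 24.7%, against 5 of the 57 with a sequence of their own, 8.77%. Reads that fall wholly within identical copies cannot be assigned to one of them, and no source used here says how the authors placed such reads. The listed peaks still differed among copies of one sequence, and the part of read placement in this was not tested. Of 13 identical proline tRNA genes on X, 4 had an optimal peak, with F46G11.t1 and F46G11.t2 sharing theirs, and 7 had no candidate. Of 8 identical histidine tRNA genes only C06G1.t1 had a candidate, with a pooled signal of 112.7. Among the 7 without one, F28H6.t2 to F28H6.t7 lie clustered between 14135045 and 14137010. Among the 57, C04A11.t1 stood highest at 245.4, and the other 4 genes with a peak had pooled signals from 75.4 to 83.6.

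Small nucleolar RNA (snoRNA) genes on X had no optimal peak. None of the 230 X peaks lay within 200 bp of a snoRNA gene, which allows a share of up to 1.59% by counting error (exact 95% interval), although X carries 33 such genes. On the autosomes, which carry 313 such genes, 48 of 870 peaks did, 5.52%. Among all pooled candidates, 7 of 4558 on X lay that close to a snoRNA gene, 0.15%, against 152 of 21324 on the autosomes, 0.71%. No X peak lay within 200 bp of a small nuclear RNA or microRNA gene either. Of the 870 autosomal peaks 7 and 4 did, 0.80% and 0.46%, both within the X bound of 1.59%.

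Outside tRNA genes the strongest X peak was the one in the hlh-8 gene, at 8117832 to 8118235, with 135.9 in replicate 1, 137.6 in replicate 2 and 271.8 pooled. The replicates were nearly equal there, and the second optimal summit of the region, 200 bp away at 8118227, shares its replicate 2 candidate with the first. A further optimal peak at the 5′ end of hlh-8, 88 bp upstream of the nearest annotated 5′ end, had 33.0 in replicate 1, 46.0 in replicate 2 and 79.3 pooled. The tagged transgene adds copies of hlh-8 sequence, and their part in the signal at this gene was not tested.

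The site between T13C5.6 and mtp-18, which encodes a homologue of a mitochondrial fission process protein, at 6207671 to 6208011, had 123.2 in replicate 1, 112.1 in replicate 2 and 235.4 pooled. It is the only X promoter peak above 200 and lies 166 bp upstream of T13C5.6. The promoter peak of F13C5.2 had 61.3 and 85.2 in replicates 1 and 2. An intronic peak at 1302510, near inso-1, had 60.5 and 75.9. The peak 527 bp upstream of ftt-2, a 14-3-3 protein gene, had 63.7 and 60.1. An exonic summit at 5429531, 15181 bp upstream of C41A3.2, the closest protein-coding start, had 59.8 and 73.5 and held CATATG, the E-box class known from HLH-8 target promoters. The intergenic peak nearest to pigx-1 had 70.4 and 63.3, and the one nearest to C30E1.4 had 65.3 and 76.1. Of these 20 strongest peaks, all with a pooled signal of at least 124.0, 9 held any E-box within 50 bp. Replicate 2 was higher at 15 of the 20.

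Several tRNA-linked peaks also stood in the window of a protein-coding gene, which reaches 2000 bp upstream and 500 bp downstream from its 5′ end. The peak of egl-17, an FGF ligand gene, had 53.6 in replicate 1 and 86.1 in replicate 2, 96 bp inside the 5′ end, and its summit lay inside the aspartic acid tRNA gene F38G1.t2. The peak of ets-5, an ETS factor gene, had 47.7 and 79.4 and lay 11 bp from the isoleucine tRNA gene C42D8.t1. That of sor-3, known for repression of Hox genes, had 69.1 and 69.2 and lay 15 bp from the leucine tRNA gene C04E7.t1. That of sec-15, an exocyst subunit gene, and C28G1.2 had 70.3 and 59.1 beside a glutamic acid tRNA gene. The peak of nlp-76, a neuropeptide-like gene, had 48.4 and 74.1 beside a tyrosine tRNA gene. At such sites the signal cannot be assigned to the tRNA gene or to the protein-coding gene.

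The share of genes with an optimal peak in that window was similar on X and elsewhere. There were 155 of 2731 protein-coding genes on X, 5.68%, against 994 of 17242 on the autosomes, 5.76%. A pooled candidate of any strength lay in the window of 54.7% of X genes and 52.8% of autosomal genes. Of the 230 X peaks 142 had such a gene and 88 had none, and 65 lay more than 2000 bp from any protein-coding 5′ end.

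Of the known HLH-8 targets on X, hlh-8 had optimal peaks, while arg-1 and egl-15 had candidates below the optimal list. The arg-1 promoter, of a Notch ligand gene, had 15.8 in replicate 1, 14.4 in replicate 2 and 30.8 pooled, 195 bp upstream. At egl-15, which encodes an FGF receptor, the values were 10.8 in replicate 1, 16.0 in replicate 2 and 25.3 pooled, 372 bp upstream. Both pooled values lie well under the lowest X optimal peak, at 57.4, and they rank 3473 for arg-1 and 5268 for egl-15 among 25882 nuclear candidates. The upper quartile of all X candidates was 24.4, below both, but each gene's value is the strongest candidate in its window. The 2 are therefore not like measures. Of the mesoblast regulators on X, sma-9, a Schnurri-type zinc finger gene, had a candidate of 38.8 in its window, and hnd-1, a Hand bHLH gene, and mls-2, a homeobox gene, had none. A stronger peak, optimal at 110.0 pooled, lay 2959 bp upstream of sma-9 with 66.1 in replicate 1 and 45.2 in replicate 2. Of 10 bHLH genes on X hlh-8 alone had an optimal peak in its window, 10.0% against the 5.68% of all X genes, and mdl-1, hlh-13 and mxl-3 had candidates of 42.8, 18.7 and 22.9 there. Outside that window an optimal peak of 58.2 lay 1671 bp downstream of the 5′ end of mdl-1.

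Muscle genes had an optimal peak at 4 of 21 on X, where 5.68% of all genes had one. The peak of act-4, an actin gene, had 31.4 in replicate 1 and 23.0 in replicate 2, 97 bp upstream. The troponin T genes mup-2 and tnt-2 had 38.7 and 38.6, and 32.7 and 30.02, in replicates 1 and 2. The peak of lev-9, needed to cluster acetylcholine receptors, is the same as that of mom-1 and lies on an alanine tRNA gene, with 46.4 and 47.9. None of these 4 sites but the shared one held an E-box within 50 bp. Candidates of any strength lay in the windows of 19 of the 21 genes, against 54.7% of all X genes, and among those not optimal were unc-97 at 46.0, mlc-2, a myosin light chain gene, at 45.2, and unc-27, a troponin I gene, at 37.7.

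The signalling and other lists have few members on X, and their counts stand beside the 5.68% of all X genes with an optimal peak. Wnt genes had it at 2 of 4, mom-1, which acts in Wnt secretion, and vang-1, a planar polarity gene, with a pooled signal of 68.4. Notch genes had it at 2 of 5, adm-4, a metalloprotease gene, at 79.2 and sel-12, a presenilin gene, at 68.4. FGF and Ras genes had it at 1 of 9, egl-17, and the BMP-like pathway at 1 of 5, tsp-21, a tetraspanin gene, at 75.3. Heterochronic genes had it at 2 of 7, ain-1, a GW182 gene of the microRNA machinery, at 79.6, and kin-20, a casein kinase gene, at 67.9. Axon guidance and basement membrane genes had it at 2 of 14, lam-2, the laminin gamma gene, at 120.7 and unc-115, an actin-binding protein gene, at 79.7. Innexins had it at 1 of 6, inx-3, at 64.7 with CAGATG. Nuclear hormone receptor genes had it at 2 of 27, nhr-255 at 106.6, 3 bp from a tRNA gene, and nhr-1 at 77.3. Other fate factors had it at 1 of 16, ets-5. None of the 30 homeobox genes and neither of the 2 ribosomal protein genes on X had an optimal peak.

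None of the 6 genes on X that act in counting the X chromosome or in compensating its dosage had an optimal peak in its window, where 5.68% of all X genes had one. All 6 had a candidate, as 54.7% of all X genes did, at pooled signals of 49.4 for fox-1, an RNA-binding protein gene, 33.6 for ceh-39, a homeobox gene, 27.2 for sex-1, a nuclear receptor gene, 16.9 for sdc-2, 16.2 for xol-1, the switch gene that fox-1, ceh-39 and sex-1 act on, and 14.2 for sdc-1. The genes sdc-1 and sdc-2 act downstream of xol-1. An optimal peak outside the window, with its summit at 8036504, lay 4809 bp upstream of xol-1 with a pooled signal of 58.0. Within 100 bp of it stood 2 dosage compensation cores, at 65 and 99 bp. This peak was near the lowest X value of 57.4 and within 200 bp of the tRNA gene C18A11.t2. It was also the only X peak with no candidate in replicate 1. The fox-1 candidate ranked 1494 among 25882 nuclear candidates.

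The E-box share of X peaks had an interval that overlapped that of autosomal peaks and lay above that of weaker X sites. Any of the 10 E-box classes stood within 50 bp of 119 of 230 X summits, 51.7% (exact 95% interval 45.1 to 58.4), and of 48.2% (44.8 to 51.5) of autosomal summits. X candidates outside the optimal list had one in 37.1% (35.7 to 38.6), and all 101-bp windows of X in 33.6%. Words were searched on both strands, and the classes can overlap in one window. CACATG stood in 36 X windows, 15.7%, against 10.5% of autosomal summits and 4.99% of the other X candidates. CAGATG stood in 33 X windows, 14.3%, against 14.4% and 6.40%. CATATG stood in 9 X windows, 3.91%, against 4.14% and 2.36%. Among the tRNA-linked X peaks, CACATG stood in 14 of 55 windows, in 6 of them inside the tRNA gene, and CAGATG in 1 of 55, while the other X peaks had CAGATG in 32 of 175 and CACATG in 22. No E-box class was found in 111 X windows, 1 in 90, 2 in 20, 3 in 7 and 4 in 2.

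The windows with 4 classes were those beside C04C11.25, shown above, and 1671 bp downstream of the 5′ end of mdl-1, a Mad-type bHLH gene. The C04C11.25 site had 50.2 in replicate 1, 68.4 in replicate 2 and 114.3 pooled. The sym-4 promoter site, with 3 classes, had 55.9 and 60.5 in replicates 1 and 2. The mdl-1 site had 36.2, 26.6 and 58.2 pooled, near the lower end of the list.

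**Figure D4:**
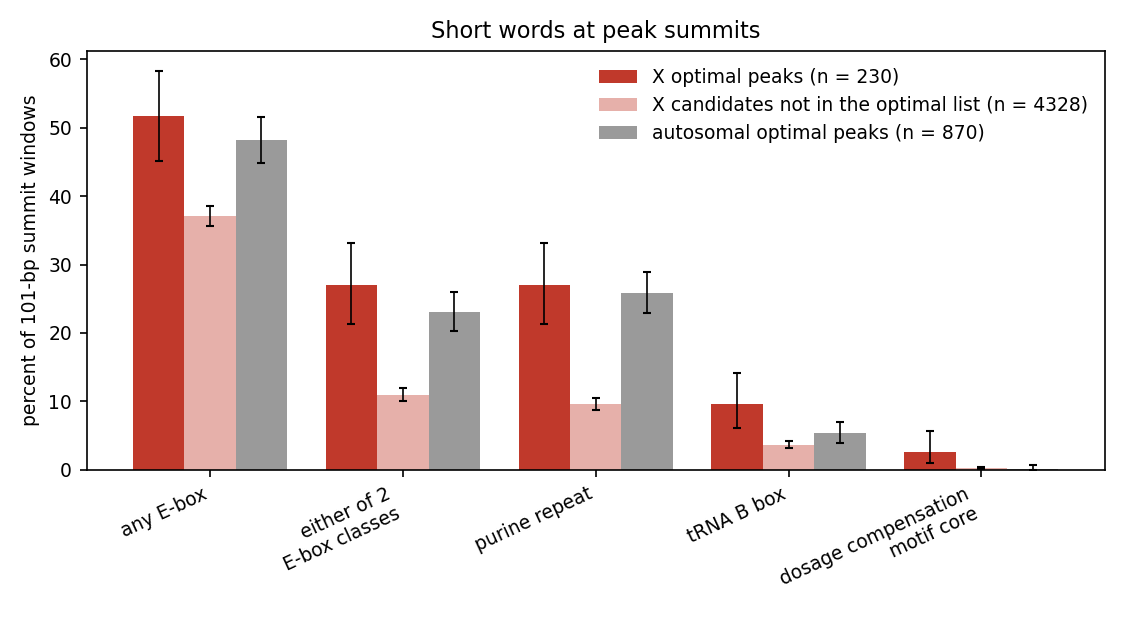
Percent of 101-bp summit windows that hold each word, for 230 X optimal peaks (red), 4328 X candidates outside the optimal list (pink) and 870 autosomal optimal peaks (grey), with exact 95% binomial intervals. The 2 E-box classes of the second group are CACATG and CAGATG, found in 27.0% of X peaks, 10.98% of other X candidates and 23.1% of autosomal peaks, and the dosage compensation core is in 2.61% of X peaks.

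The purine repeat GAGAGA stood in 62 X windows, 27.0%, against 25.9% of autosomal summits. It stood in 9.61% of X candidates outside the optimal list and in 4.91% of all X windows. The GC content of X summit windows had a median of 51.5%, against 48.5% at autosomal summits and 40.6% at other X candidates, and the part of GC content in the shares of these words was not tested.

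The dosage compensation core GCGCAGGG stood at 6 of 230 X summits, 2.61% (exact 95% interval 0.963 to 5.59), against 1 of 870 autosomal summits, 0.115% (0.00291 to 0.639). X candidates outside the optimal list held it at 8 of 4328 summits, 0.185%. All 101-bp windows of X held it in 0.0388%, and those of the autosomes in 0.0263%. Counted from the sites, X has 81 and the autosomes 233. An optimal summit lay within 200 bp of 14 of the 81, 17.3%, against 4 of the 233, 1.72%, and any candidate within 200 bp of 34, 42.0%, against 45, 19.3%. The motif is known to be active in longer forms than these 8 letters, and neighbouring cores can share a summit. How often any position of X lies that close to a summit was not counted. The part of GC content in these shares was not tested.

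All 6 sites had a pooled signal above the X median of 73.8, 4 of them above the upper quartile of 90.1, and none was near a tRNA gene. The site near F20B6.9 had 60.4 in replicate 1, 52.4 in replicate 2 and 109.5 pooled. The promoter site of R04E5.9 had 59.1, 42.1 and 101.9 pooled. The intergenic site nearest to gtr-1 had 55.6, 39.8 and 93.3 pooled. The intronic site nearest to cest-16 had 48.7, 43.1 and 90.9 pooled. The site closest to W02H3.3 had 36.6, 48.6 and 78.4 pooled, and the one near nspc-17 had 33.1, 51.6 and 76.6 pooled. Replicate 1 was the higher at the first 4 and replicate 2 at the last 2. A second core stood close to 3 of these sites, 58 bp from the summit near gtr-1 and 80 bp from that near W02H3.3, and 48 bp from that near cest-16, where it reaches past the edge of the window.

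Nearly every X peak had a counterpart in both replicates, an outcome that the choice of strong pooled sites favours. On X the lowest pooled signal inside the list was 57.39 and the highest outside it was 57.34. A candidate summit within 200 bp was found in both replicates for 229 of 230 X peaks and 869 of 870 autosomal peaks. The exception on X, the peak at 8036504 upstream of xol-1 and 181 bp from a tRNA gene, had none in replicate 1. At 6 X peaks the matched candidate of replicate 1 also served another X peak, and the same held for 6 in replicate 2. Signals had a median of 36.5 in replicate 1 and 39.1 in replicate 2. The median log2 ratio of replicate 2 over replicate 1 was 0.14 over X peaks (SD over sites 0.53) and 0.19 over autosomal peaks (SD 0.49), and replicate 2 was higher at 140 of 229 X peaks. The difference passed 2-fold at 15 X peaks, with replicate 2 the higher at 10 and replicate 1 at 5.

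As a description across sites, which share the same 2 libraries and were selected on the pooled signal, Spearman's rho between replicates was 0.37 over 229 X peaks and 0.56 over 869 autosomal peaks. It was 0.61 over 54 tRNA-linked X peaks and 0.26 over the 175 others. The highest pooled signal also differed, 271.8 on X against 1132 on the autosomes.

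**Figure D5:**
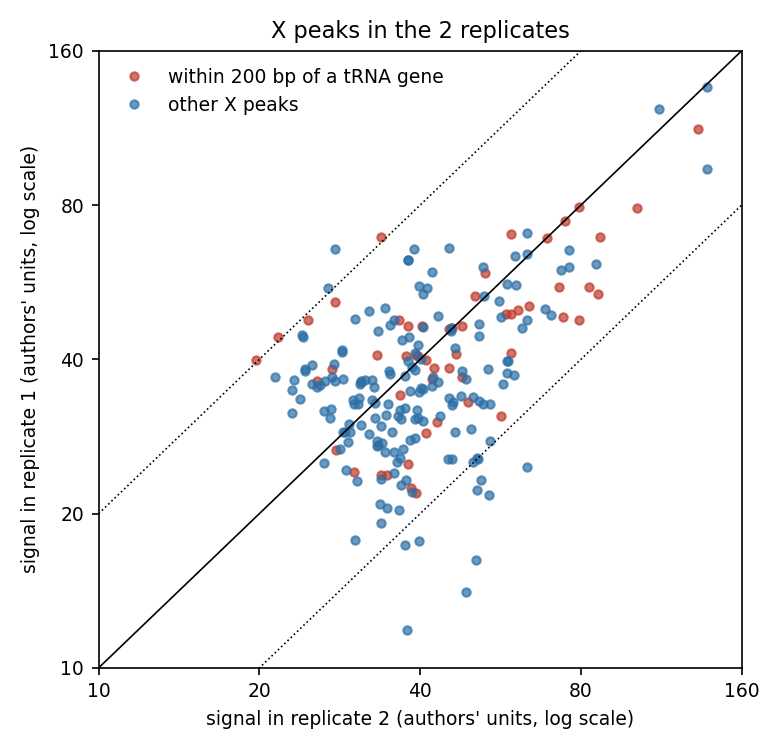
Signal of each X peak in replicate 2 (horizontal axis) and replicate 1 (vertical axis), in the authors' units on logarithmic axes, with red for peaks within 200 bp of a tRNA gene, blue for the others, a solid line at equality and dotted lines at 2-fold. Of 229 matched peaks 140 lie below the line of equality, higher in replicate 2, and 15 lie outside the dotted lines.

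The peaks with the highest ratio of replicate 2 were those near pqn-39, with 48.7 in replicate 2 and 14.1 in replicate 1, near F52H2.3, with 37.8 and 11.8, near hda-4, a class II histone deacetylase gene, with 50.9 and 16.2, at lam-2, with 63.3 and 24.6, and in an intron of lin-14, a heterochronic gene, with 53.9 and 21.7. The lowest ratios were at kin-29, a salt-inducible kinase gene, with 27.7 in replicate 2 and 65.6 in replicate 1, near srd-43, with 33.8 and 69.3, 11366 bp upstream of B0294.3, with 21.6 and 44.3, at unc-115, with 26.9 and 55.0, and in an intron of ser-2, a tyramine receptor gene, with 19.7 and 39.9. Of these 5 lowest, 3 were tRNA-linked, and none of the 5 highest was. The summits by B0294.3 and ser-2 lay inside the tRNA genes Y59E1B.t2 and C02D4.t1, and that by srd-43 lay 122 bp from R04D3.t2. Over all matched X peaks the 2 kinds were alike, with replicate 2 higher at 34 of 54 tRNA-linked peaks and 106 of 175 others. Their median log2 ratios were 0.16 and 0.14. At 3 of the 10 peaks named, those at kin-29, srd-43 and lam-2, one replicate's candidate was also matched to a neighbouring X peak. The ratio there therefore does not compare one summit. Log2 ratios ran from −1.25 at kin-29 to 1.79 near pqn-39.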

How the data were processed

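The deposited files are lists of peaks per replicate, pooled and after the IDR step, for the builds ce11 and ce10. Their measurement used here is the signal of each peak, the authors' own caller value as deposited, with no statement of any scaling for depth. Names of an aligner or a caller were not given in the sources used here. Per the deposited file inventories, each candidate list came from the alignments and a control. Read depth is unknown, so no floor or interval is given for a signal.

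X peaks were matched to each replicate's strongest candidate within 200 bp of the summit, annotated with Ensembl release 115 and the RefSeq annotation, which named all 612 nuclear tRNA genes, and searched for words within 50 bp of the summit. Shares carry exact 95% Clopper-Pearson intervals. No significance test was made. Functions were checked on simulated data. Software was Python 3.11.15 with pandas 2.3.3, numpy 2.4.6, matplotlib 3.10.9 and scipy 1.17.1. Coordinates are 1-based.

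The X peaks, the 16 gene lists, the words and the settings were chosen with earlier results of these data known. Genes named are those at the 20 strongest X peaks, the 5 strongest tRNA-linked peaks, every X member of the lists of HLH-8 targets, mesoblast regulators and bHLH genes with any candidate or optimal peak, X members of other lists with an optimal peak, the 5 highest and 5 lowest replicate ratios, and the 3 X candidates on either side of the end of the optimal list. Genes at the windows shown and muscle, X signal and other examples beyond this were chosen after their values were seen. Alternatives were the other build, other windows, distances and word flanks, the stronger 560 peaks, and each replicate alone, represented by its 1120 strongest candidates.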

Additional observations from a re-analysis of the deposited data

How the results depend on the processing

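Of 35 alternative values 24 stayed within the exact 95% interval of the value given, or within the spread for signals, and 11 did not. This tally is not a measure of robustness. Wider or narrower windows and flanks change a share by construction, and the signal of 1 replicate is on its own scale. For the log2 ratio the spread was the SD over sites, 0.53, which is wide beside its alternatives. Among the stronger 560 peaks of the list the X share was 16.25%, and without peaks near a tRNA or snoRNA gene it was 17.9%. In the other build, ce10, it was 20.5% of 1631 peaks, and in each replicate alone 19.1 to 20.3%. The promoter share of X peaks was 47.0% with windows of 1000 bp upstream to 200 bp downstream, against 63.0% of autosomal peaks, and 24.8% with 300 bp upstream to 100 bp downstream, against 39.9%, so X was the lower at each width. The tRNA-linked share was 37.4% among the stronger 560 peaks. It was 22.9 to 25.2% in each replicate alone, and 23.0 to 24.8% at distances of 100 to 1000 bp. The median signal was 36.7 to 39.7 in each replicate alone, on that replicate's own scale. E-boxes stood in 70.0% of X windows of 100 bp to either side and in 34.8% of those of 25 bp. X genes with a peak were 4.06% with windows of 1000 bp upstream and 7.87% by nearest 5′ end. The median log2 ratio of the replicates ran from 0.13 to 0.15. No paired analysis was possible because the design has 1 group. With 2 replicates, 1 strain and depth unknown, no value here separates binding of tagged HLH-8 from signal that untagged worms would also give.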
